A study of Homo sapiens with 4 samples.

Results

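The cluster in the introns of CLCN5 on the X chromosome holds 8 miRNA hairpins, and 8 of their mature products were followed here: hsa-miR-532-5p, hsa-miR-532-3p, hsa-miR-188-5p, hsa-miR-500a-3p, hsa-miR-362-5p, hsa-miR-501-3p, hsa-miR-660-5p and hsa-miR-502-3p. They are 8 of the 1474 mature miRNAs listed in at least 1 library, and all 8 had a count in every library. The cluster was chosen by the counts of miR-532-3p, which differed in opposite directions in the 2 pairs of lines, so the differences within the pairs are given as a description. Where a count of members passing a test within a pair is given, it stands beside the share of all miRNAs and nothing is read from it. The question addressed is whether the members of the cluster moved together.

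Small RNA had been sequenced from HCT116 and RKO, 2 established lines of human colorectal cancer, and from their derivatives HCT116-R and RKO-R, which carry the phenotype label acquired radioresistant and were obtained by repeated irradiation. Each line gave 1 library, so a parental and a radioresistant line differ also by passage and by whatever separates single libraries, and these cannot be told apart from radioresistance. For each parent there is 1 radioresistant line, and the labels give neither a replicate culture nor an irradiation dose. The library totals lay between 6818497 and 7140460 counts, and the floor of 3 counts corresponded to 0.420 to 0.440 counts per 1000000 counts of the library (CPM).

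A miRNA hairpin is cut from a longer transcript by Drosha in the nucleus and by Dicer in the cytoplasm, which leaves a duplex of a 5p and a 3p arm. Usually 1 arm, the guide, is kept by an Argonaute protein and pairs with target mRNAs through its seed, while the other, the passenger, is mostly degraded. Hairpins that lie close together in an intron can come from the same primary transcript, and their mature levels then share that source but can differ in processing, arm choice and decay. CLCN5 encodes a chloride/proton exchanger of endosomes. Among the members, miR-660-5p is known for targeting MDM2, the ubiquitin ligase of p53, and miR-362-5p for targeting CYLD, a deubiquitinase that restrains NF-kB signalling.

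On GRCh38 (GENCODE release 29), CLCN5 lies on the plus strand at chrX:49922615-50099235, and the 8 hairpins span 11536 bases of it, on the same strand. All 8 lie in intron 3 of the transcript CLCN5-202 (chrX:49925315-50042315), in an intron of 3 of the 9 annotated CLCN5 transcripts, and overlap no CLCN5 exon. MIR532 (chrX:50003148-50003238) comes first and MIR188 (chrX:50003503-50003588) starts 355 bases after it. MIR500A (chrX:50008431-50008514), MIR362 (chrX:50008964-50009028), MIR501 (chrX:50009722-50009805) and MIR500B (chrX:50010672-50010750) form a middle group. MIR660 (chrX:50013241-50013337) and MIR502 (chrX:50014598-50014683) come last. No gene is annotated on the opposite strand at any of the 8 hairpins.

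The mature sequences are shown because some members are so alike that reads could be divided between them, and because both arms of MIR532 are compared below. RefSeq (GRCh38.p14) held 7 of the 8 members, not miR-660-5p, and each sequence is given from 5′ to 3′ with the seed, bases 2 to 8, in capitals:
miR-532-5p: cAUGCCUUgaguguaggaccgu
miR-532-3p: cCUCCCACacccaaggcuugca
miR-188-5p: cAUCCCUUgcaugguggaggg
miR-362-5p: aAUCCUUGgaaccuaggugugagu
miR-500a-3p: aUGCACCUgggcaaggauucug
miR-501-3p: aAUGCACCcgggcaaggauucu
miR-502-3p: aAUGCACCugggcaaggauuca

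The last 3 form a family by sequence. miR-501-3p and miR-502-3p share the seed AUGCACC. miR-500a-3p starts 1 base later on the same stretch, with the seed UGCACCU, and shares an unbroken run of 20 of its 22 bases with miR-502-3p and of 13 with miR-501-3p. Their counts are therefore uncertain as single values, since how the counting treated reads that match more than 1 of them is not given in the sources used here. The arms of MIR532 have different seeds, AUGCCUU on the 5p arm and CUCCCAC on the 3p arm, and neither seed is shared with another matched member. The guanine and cytosine (GC) content of the 7 sequences ran from 45.8% in miR-362-5p to 63.6% in miR-532-3p.

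The most abundant member in every library was miR-532-5p. HCT116 had 1777 CPM of it, HCT116-R 1550 CPM, RKO 2578 CPM and RKO-R 2245 CPM, which was 84.3%, 78.7%, 77.3% and 80.1% of the counts of all 8 members. Both RKO lines lay above both HCT116 lines, and the 2 libraries of a pair lay close together.

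The other arm of the same hairpin, miR-532-3p, had 96 counts (14.1 CPM) in HCT116, 432 counts (63.4 CPM) in HCT116-R, 1348 counts (189 CPM) in RKO and 231 counts (33.4 CPM) in RKO-R. RKO stood highest and HCT116 lowest, with the 2 radioresistant lines between them. Its share of the members' counts was 0.667%, 3.22%, 5.66% and 1.19% in the same order of libraries.

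The next most abundant members were miR-362-5p and miR-660-5p. miR-362-5p had 155 CPM in HCT116, 178 CPM in HCT116-R, 275 CPM in RKO and 292 CPM in RKO-R. miR-660-5p had 99.4, 101, 154 and 159 CPM in these libraries. For both, the libraries of a cell line were close to each other and the RKO lines were the higher ones.

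miR-188-5p and miR-501-3p formed a lower pair. miR-188-5p had 22.4 CPM in HCT116, 27.1 CPM in HCT116-R, 46.4 CPM in RKO and 31.4 CPM in RKO-R. miR-501-3p, the main product of MIR501, had 29.2, 32.0, 52.4 and 30.8 CPM. Parental RKO was the highest library for both, and for miR-188-5p the interval of RKO-R also lay above that of HCT116.

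The lowest members were miR-502-3p and miR-500a-3p. miR-502-3p had 58 counts (8.50 CPM) in HCT116, 74 counts (10.9 CPM) in HCT116-R, 196 counts (27.4 CPM) in RKO and 61 counts (8.82 CPM) in RKO-R. miR-500a-3p had 16 counts (2.34 CPM), 43 counts (6.31 CPM), 102 counts (14.3 CPM) and 25 counts (3.62 CPM). Both were highest in parental RKO, and miR-500a-3p had the same order of libraries as miR-532-3p by its counts, although its interval in RKO-R overlapped those in both HCT116 and HCT116-R.

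**Figure D1:**
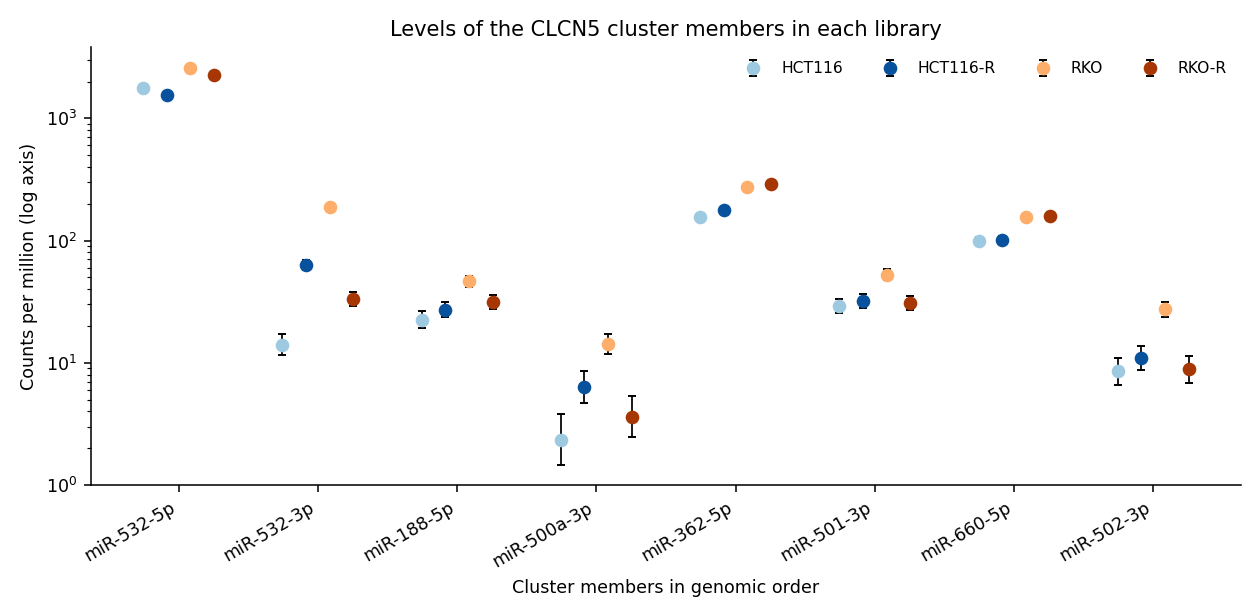
Level of each member in CPM (log axis) in the 4 libraries, 1 point per library with its 95% Wilson interval for counting error. miR-532-3p ranged from 14.1 CPM in HCT116 to 189 CPM in RKO, while the points of miR-532-5p, miR-362-5p and miR-660-5p lie close together within each cell line.

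Within a library the order of the members changed mainly through miR-532-3p, which was the sixth in HCT116, the fourth in HCT116-R and RKO-R, and the third in RKO. miR-532-5p, then miR-362-5p, led in all 4 libraries, and miR-502-3p and then miR-500a-3p closed all 4. Counts are of whole mature miRNAs, 21 to 24 bases long in the 7 members with a matched sequence, so levels were not divided by length. The 95% Wilson intervals of miR-188-5p and miR-501-3p overlapped in each library, so their order was not resolved. In RKO-R, miR-532-3p (29.4 to 38.0 CPM) was not resolved from these 2 either.

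In the HCT116 pair, 2 of the 8 members were higher in HCT116-R by 2-fold or more, with at least 10 counts in a library of the pair, and 0 were lower by as much. Among all 639 miRNAs with at least 10 counts, 15.2% rose and 9.86% fell by this measure. The ratios were taken after scaling the 2 libraries of a pair with trimmed mean of M-values (TMM) factors, and their intervals are exact 95% intervals for counting error alone. miR-532-3p was 4.44-fold higher in HCT116-R (log2 ratio 2.15, interval 1.83 to 2.48), and miR-500a-3p 2.65-fold higher (1.41, 0.55 to 2.33). The interval of miR-500a-3p is wide because it rests on 16 and 43 counts. miR-502-3p, the next below 2-fold, had a log2 ratio of 0.33, and its interval from -0.18 to 0.85 included 0.

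The abundant members hardly differed in the same pair. The log2 ratio was -0.22 for miR-532-5p, 0.18 for miR-362-5p and 0.01 for miR-660-5p, 0.25 for miR-188-5p and 0.11 for miR-501-3p. In all, 6 of 8 members lay within 1.5-fold. The sum of the 8 members, which miR-532-5p dominates, went from 14385 to 13428 counts, a log2 ratio of -0.12.

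In the RKO pair, 3 members were lower in RKO-R by 2-fold or more and 0 were higher. Over all 539 miRNAs with at least 10 counts, 18.9% fell and 12.1% rose. miR-532-3p was 4.79-fold lower in RKO-R (log2 ratio -2.26, interval -2.47 to -2.06), miR-500a-3p 3.35-fold lower (-1.75, -2.44 to -1.10) and miR-502-3p 2.64-fold lower (-1.40, -1.84 to -0.98). The next member, miR-501-3p, stayed under 2-fold at -0.53, and its interval from -0.78 to -0.28 did not include 0. The 3 lower members are all 3p arms, and all 4 of the 3p arms followed here had a log2 ratio below 0 in this pair. Among all 213 3p arms the median log2 ratio was -0.01, and 20.2% were lower by 2-fold or more. The 3p members include miR-532-3p, by which the cluster was chosen, and near-identical sequences, so nothing is read from this count.

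The 5p members of the RKO pair were near to equal in both lines. miR-362-5p had a log2 ratio of 0.32 and miR-660-5p of 0.28, while miR-188-5p had -0.33. miR-532-5p had 0.04 with TMM factors and -0.20 with library totals, so its direction depended on the scaling. With library totals every ratio of this pair is lower by 0.24 on the log2 scale and with the size factors of DESeq2 higher by 0.12, while in the HCT116 pair no scaling moved the ratios by more than 0.08. The sum of the members was 23825 counts in RKO and 19388 in RKO-R, a log2 ratio of -0.01 after TMM scaling.

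**Figure D2:**
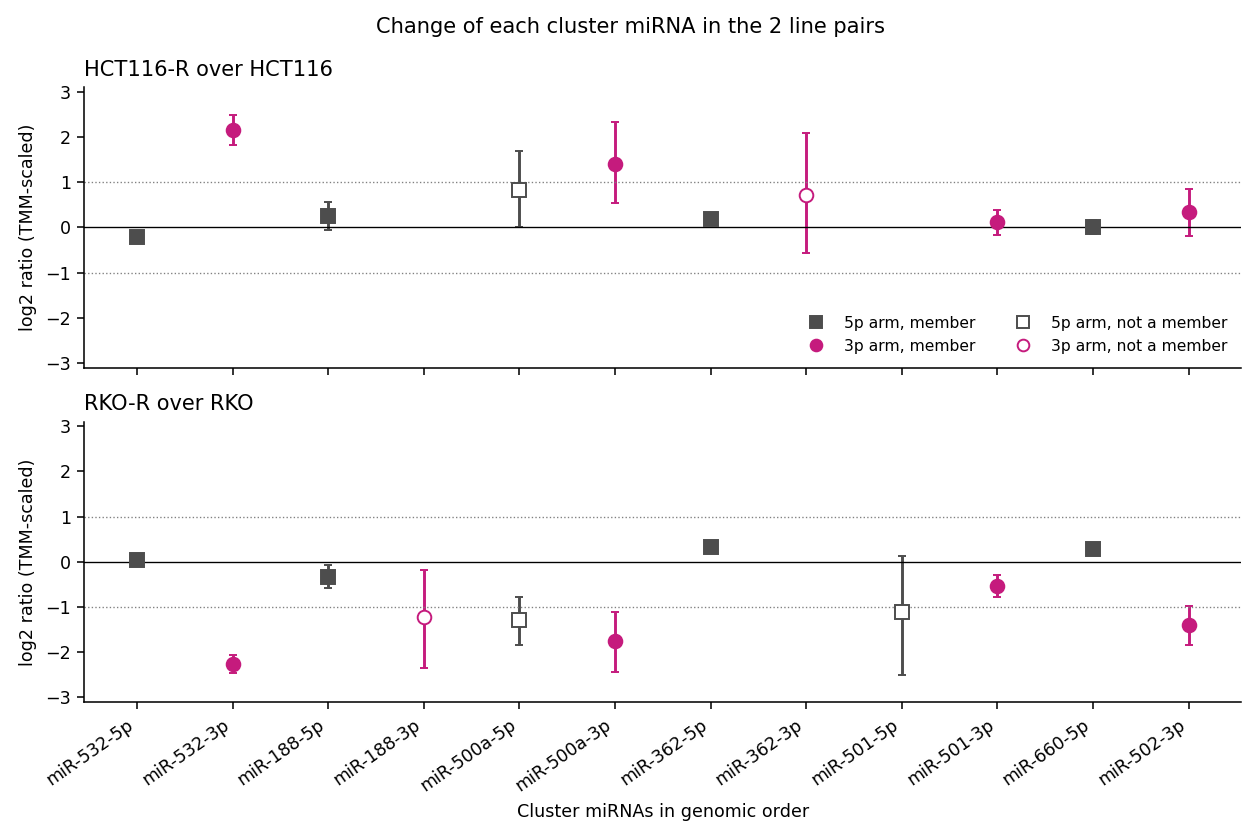
log2 ratio of TMM-scaled counts, radioresistant over parental line, for the cluster miRNAs in genomic order with at least 10 counts in a library of the pair. Squares are 5p arms, circles 3p arms, open symbols arms outside the 8 members, bars exact 95% intervals for counting error, and dotted lines mark 2-fold; the filled squares differ by at most 1.25-fold in both panels while the filled circles range up to 2.15 for the HCT116 pair and down to -2.26 for the RKO pair.

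By an exact test of edgeR over all miRNAs of a pair, with an assumed biological coefficient of variation (BCV) of 0.2, 1 member passed for the HCT116 pair (miR-532-3p) and 2 for the RKO pair (miR-532-3p and miR-500a-3p). Of all miRNAs, 4.01% of 1322 passed in the HCT116 pair and 5.54% of 1155 in the RKO pair. These tests compare single libraries under an assumed spread, and since the cluster was chosen in the same contrast nothing is read from the members' counts.

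Side by side, miR-532-3p and miR-500a-3p were the 2 members that differed 2-fold or more in both pairs, and each did so in opposite directions. Opposite movement of this size was seen for 34 of 465 miRNAs with at least 10 counts in a library of each pair, or 7.31%, and the background of a mere difference in sign was 55.1%, against 6 of the 8 members. Of these 6, miR-532-5p differed in sign with TMM factors but not with library totals, and miR-660-5p, at 0.01 in the HCT116 pair, would join them with DESeq2 size factors (-0.07). miR-532-3p stood at the percentile 94.8 of all log2 ratios for the HCT116 pair and at 4.08 for the RKO pair. miR-532-5p stood at 38.0 and 53.4, near the middle in both.

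**Figure D3:**
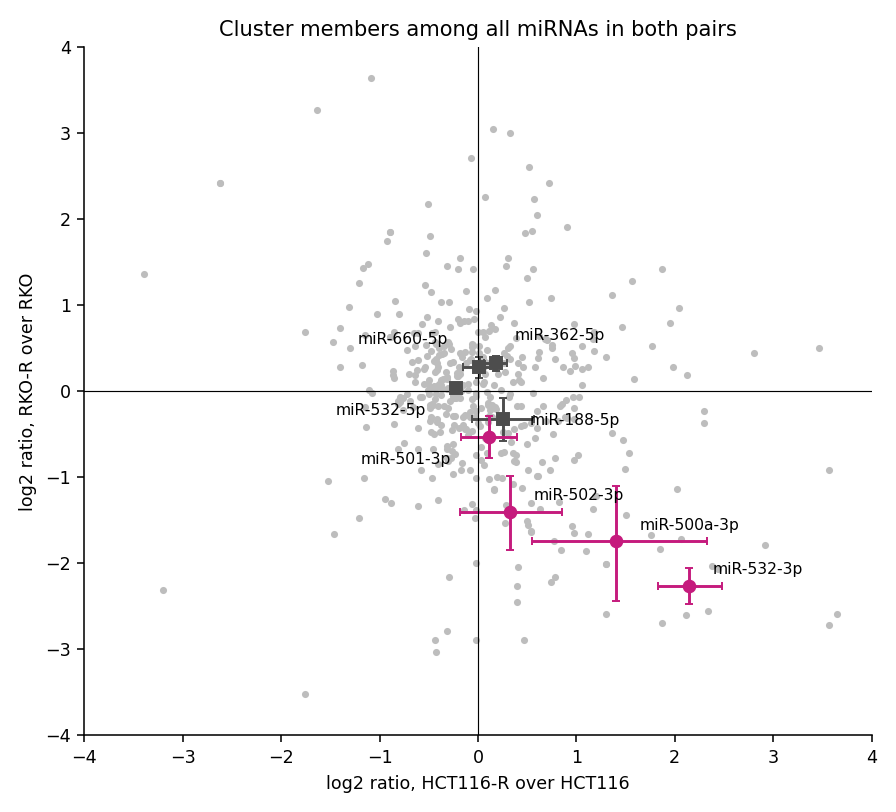
Each point is 1 miRNA with at least 10 counts in a library of each pair, with its log2 ratio in the HCT116 pair on the x axis and in the RKO pair on the y axis; members carry exact 95% counting intervals (squares 5p, circles 3p), 446 other miRNAs are grey and 11 lie outside the axes. The 5p members sit near the origin, and miR-532-3p and miR-500a-3p lie in the lower right, higher in HCT116-R and lower in RKO-R.

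Taken by arm, the 4 members from 5p arms kept together. Their log2 ratios ran from -0.22 to 0.25 in the HCT116 pair (SD 0.21) and from -0.33 to 0.32 in the RKO pair (SD 0.30). The 4 members from 3p arms ran from 0.11 to 2.15 (SD 0.95) and from -2.26 to -0.53 (SD 0.73), with medians of 0.87 and -1.57. The 3p members include miR-532-3p, by which the cluster was chosen, and the near-identical family, so this contrast is a description of the listed arms. Arms outside the members are given below, among them 5p arms that were lower in RKO-R. Over all miRNAs the medians were -0.03 for 279 5p and 0.03 for 258 3p arms in the HCT116 pair. In the RKO pair they were 0.01 for 236 and -0.01 for 213. The shares past 2-fold did differ by arm. In HCT116-R, 16.3% of 3p and 11.5% of 5p arms rose, while 10.1% and 10.4% fell. In RKO-R, 20.2% of 3p and 15.3% of 5p arms fell, and rises were also more frequent among 3p arms. These differences between the arms were not tested. The sum of the 3p members gave log2 ratios of 1.03 and -1.65 in the 2 pairs and that of the 5p members -0.17 and 0.07.

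Without miR-532-3p, the 3 remaining 3p members are the near-identical family. Their sum does not depend on how reads were divided among them, provided that each read was counted once within the family, which is not given. HCT116 had 273 counts of the sum and HCT116-R had 335, RKO had 672 and RKO-R had 299. The log2 ratio of this sum was 0.27 (0.04 to 0.51) in the HCT116 pair and -0.88 (-1.09 to -0.69) in the RKO pair. The direction in each pair was that of miR-532-3p, at a smaller size. DESeq2 size factors shift every ratio of the HCT116 pair by -0.08, with which the interval there would include 0. A difference in sign between the pairs was found for 55.1% of 465 miRNAs, so little is read from the shared direction.

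The spread of the members was set beside that of 2 other polycistronic clusters. The SD of the 8 log2 ratios was 0.81 for the HCT116 pair and 0.98 for the RKO pair, and 0.52 and 0.81 without miR-532-3p. The MCM7 intron cluster, whose miR-106b, miR-93 and miR-25 act on cell cycle inhibitors, had an SD of 0.53 in either pair over 6 arms, and 0 of them differed 2-fold. The miR-183 cluster of sensory and epithelial cells had an SD of 0.45 and 1.03, the latter through miR-183-5p, which was higher in RKO-R (log2 ratio 2.26). All miRNAs with at least 10 counts had an SD of 1.49 in both pairs, and those with at least 100 counts 1.53 and 1.49, with extremes of -7.79 and 9.07 (HCT116 pair) and of -10.1 and 8.99 (RKO pair) that weigh heavily in these SDs. Other miRNAs of the same chromosome arm, miR-221, miR-222 and miR-98, showed no arm past 2-fold, of 4 arms for the HCT116 pair and 5 for the RKO pair with at least 10 counts. The nearest to it was miR-221-5p, with 91 counts in HCT116 and 183 in HCT116-R (log2 ratio 0.99).

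The 2 arms of MIR532 are cut from 1 hairpin and were counted in the same library, so the scaling factors cancel in their ratio. The 3p counts are those by which the cluster was chosen, so the ratio is a description too. The 3p arm took 0.785% of the arm counts in HCT116 (exact Clopper-Pearson 95% interval 0.637 to 0.958%), 3.93% in HCT116-R (3.57 to 4.31%), 6.82% in RKO (6.48 to 7.18%) and 1.47% in RKO-R (1.28 to 1.67%). These intervals did not overlap, but they cover counting error only and restate in part the choice by miR-532-3p. Per count of the 3p arm, HCT116 had 126 counts of the 5p arm and HCT116-R had 24.5, RKO had 13.7 and RKO-R had 67.2. The ratio of the 3p to the 5p arm was thus higher by 2.37 on the log2 scale in HCT116-R and lower by 2.30 in RKO-R (log2 change -2.30).

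For none of the other 4 hairpins with counts on both arms in every library did the intervals of a pair part at these depths, and none of them was chosen by its own counts. The 3p share of MIR500A, whose arms were about equally abundant, was 44.4%, 54.4%, 44.9% and 37.3% in HCT116, HCT116-R, RKO and RKO-R. miR-500a-5p, the arm opposite miR-500a-3p, had 20, 36, 125 and 42 counts, so both arms of MIR500A were lower in RKO-R (log2 ratio -1.29 for the 5p arm and -1.75 for the 3p arm). MIR188, MIR362 and MIR501 kept a dominant arm in all libraries. The 3p share was 2.63 to 8.56% for MIR188, 0.296 to 1.22% for MIR362 and 94.7 to 98.5% for MIR501, again with overlapping intervals within each pair.

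**Figure D4:**
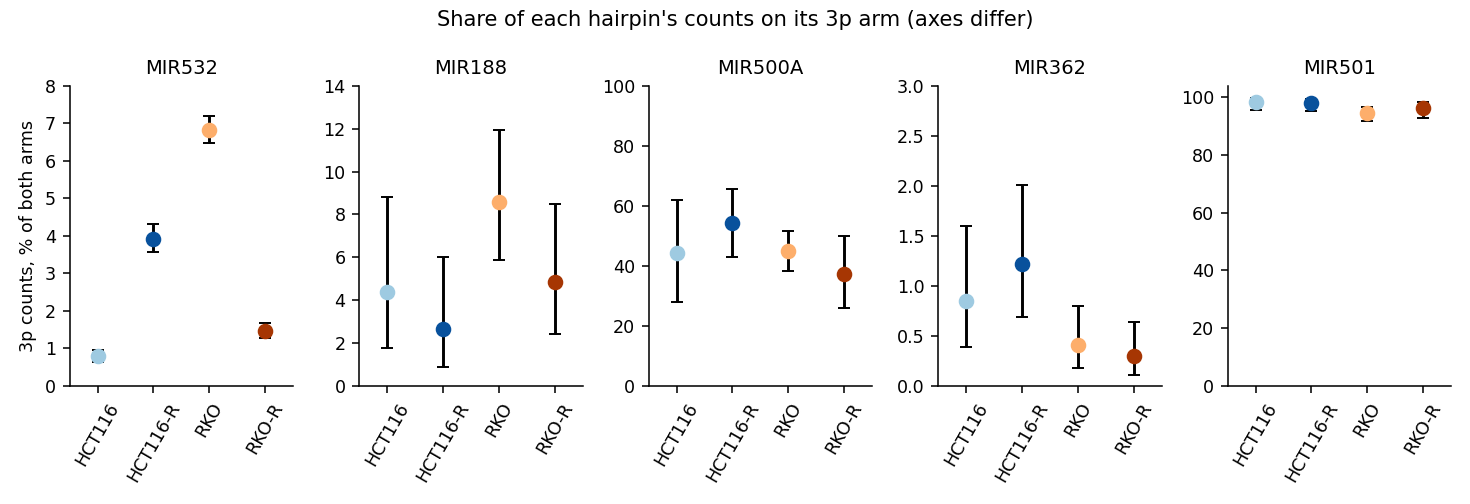
Percent of the counts of both arms that fell on the 3p arm, for the 5 hairpins with counts on both arms in every library; points are libraries and bars exact 95% intervals, and the y axes differ between panels. The MIR532 panel shows 4 separate values, from 0.785% in HCT116 to 6.82% in RKO, while within each pair the intervals of the other hairpins overlap.

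The arms outside the 8 members were sparse. Of 8 such arms, 5 had at least 1 count in a library, and miR-500b-5p, miR-500b-3p and miR-502-5p were at 0 in all 4, below 0.440 CPM by the floor. The sequence of miR-500b-5p, an annotated product of 18 bases, is wholly contained in miR-500a-5p. With at least 10 counts in a library of the RKO pair, miR-188-3p (31 and 11 counts), miR-500a-5p (125 and 42) and miR-501-5p (21 and 8) were each lower in RKO-R by 2-fold or more. miR-500a-5p and miR-501-5p are 5p arms, so lower levels in RKO-R were not limited to 3p arms. The abundant 5p arms miR-532-5p, miR-362-5p and miR-660-5p differed by at most 1.25-fold in this pair with TMM factors. In the HCT116 pair none of the 2 arms with enough counts reached 2-fold. Their log2 ratios were 0.83 for miR-500a-5p and 0.72 for miR-362-3p, both with intervals that included 0.

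Which library differences moved along with these values is stated here, and their part in the results was not tested. Across miRNAs with a RefSeq sequence, the log2 ratio and the GC content of the mature sequence had a Spearman correlation of 0.03 for the HCT116 pair (568 miRNAs) and of -0.34 for the RKO pair (478 miRNAs), which share the 2 libraries of a pair and are no independent samples. Among the members, miR-532-3p had the highest GC content (63.6%) and the lowest ratio of the RKO pair, and miR-188-5p had 61.9% and -0.33. At 54.5%, miR-500a-3p had -1.75 and miR-532-5p 0.04, and miR-502-3p, lower in GC than both, had -1.40. Both radioresistant libraries also differed from both parental ones in how counts fell on 2 antisense pairs outside the cluster. miR-7-5p had 171920, 2381, 367030 and 284 counts in HCT116, HCT116-R, RKO and RKO-R, and miR-3529-3p 1087, 524339, 827 and 346251. miR-423-5p had 20749, 95, 11237 and 10 counts, and miR-3184-3p 38, 13716, 50 and 13335. Whether the tables of parental and radioresistant lines were counted with the same settings is not given in the sources used here, and this limits every ratio within a pair, those of the members included. Among markers of other cells, the summed level of 5 blood miRNAs was 5.79 to 43.8 CPM and that of 2 stromal miRNAs 7.14 to 299.0 CPM, lowest in RKO, with miR-145-5p at 0 there. The 5 epithelial miRNAs summed to 58276 and 62640 CPM in the HCT116 lines and to 9800 and 11260 CPM in the RKO lines, where miR-141-3p had 17 and 41 counts, and the 3 intestinal miRNAs summed to 268 to 443 CPM, with miR-215-5p at 0 in 3 libraries.

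The difference between the cell lines, averaged over the parental and radioresistant libraries, was not used in choosing the cluster. In a quasi-likelihood fit of edgeR over the 4 libraries, with line and radioresistance as terms, 0 of the 8 members passed an adjusted p of 0.05, and 0 had an unadjusted p under 0.05. Of the 598 miRNAs tested, 6.19% were called higher in the RKO lines and 22.1% higher in the HCT116 lines. The adjusted p of the members ran from 0.261 to 0.576 (edgeR, Benjamini-Hochberg over all 598), and DESeq2 with the same model called 0 members as well. The fit left 1 residual degree of freedom, the difference between the 2 pairs, and estimated a common BCV of 0.481. The standard errors of the members ran from 0.44 to 1.26, the largest for miR-532-3p. Since the cluster was chosen by that difference in miR-532-3p, the spread is not independent of the choice. The 0 calls therefore cannot show that the lines were alike in the members, and nothing is concluded from them. An exact test of edgeR with 2 libraries a line, an assumed BCV of 0.2 and no radioresistance term called 7 of 8, and also 58.7% of all 598 miRNAs.

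All 8 point estimates were higher in the RKO lines, where 42.5% of all tested miRNAs had that sign. The log2 difference was 0.64 (SE 0.44) for miR-532-5p, 0.87 (SE 0.50) for miR-362-5p and 0.75 (SE 0.52) for miR-660-5p. For miR-188-5p it was 0.73 (SE 0.56) and for miR-501-3p 0.50 (SE 0.56). The 95% intervals of all 8 included 0. In 4 members, namely those from 5p arms, both RKO libraries lay above both HCT116 libraries in CPM, as did 22.6% of the 713 miRNAs compared in this way.

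For the members that moved in the pairs, the difference between lines depended on which libraries were compared. Between the parental lines, miR-532-3p was higher in RKO by a log2 difference of 3.62, miR-500a-3p by 2.48 and miR-502-3p by 1.57. Between the radioresistant lines the difference of miR-532-3p was -0.82 (counting interval -1.06 to -0.59). Those of miR-500a-3p, -0.70 (-1.48 to 0.04), and of miR-502-3p, -0.20 (-0.71 to 0.31), had intervals that included 0. The fit of all 4 libraries gave 1.51 (SE 1.26) for miR-532-3p, 0.99 (SE 0.93) for miR-500a-3p and 0.80 (SE 0.67) for miR-502-3p. Its TMM factors came from the 598 miRNAs tested, while those of the single-library differences came from all miRNAs, so the scales differ slightly. With all 1474 miRNAs kept, the fit gave 1.39 for miR-532-3p. The turned sign of miR-532-3p follows from the opposite ratios of the pairs and is no separate observation.

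**Figure D5:**
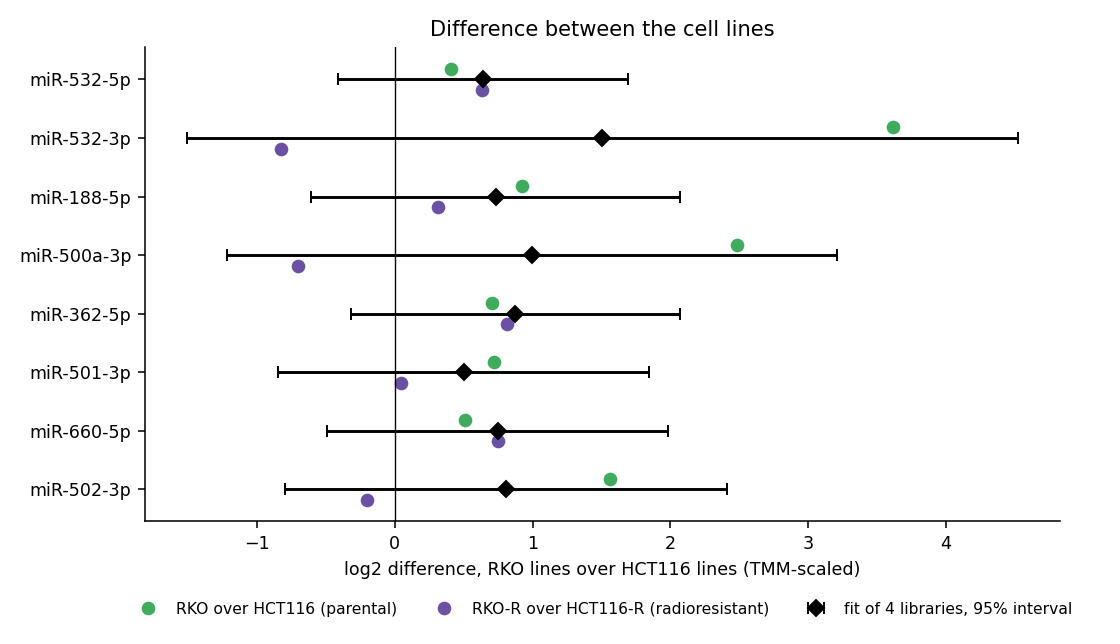
log2 difference of the RKO lines over the HCT116 lines for each member: diamonds with 95% intervals from the fit of 4 libraries, green points for the parental and purple points for the radioresistant libraries alone. TMM factors came from the 598 miRNAs tested for the diamonds and from all miRNAs for the points, so their scales differ slightly. All diamonds lie above 0 with intervals that include it, and the purple points of miR-532-3p, miR-500a-3p and miR-502-3p lie below 0, the latter 2 with counting intervals (not drawn) that include 0.

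The miRNAs outside the cluster whose levels were most like those of miR-532-3p were found by Euclidean distance of log2(CPM + 1), centred over the 4 libraries, among 198 miRNAs with at least 100 counts in each library. miR-4521 was the nearest, at a distance of 0.298. HCT116 had 676 counts of it and HCT116-R had 3474, RKO had 11563 and RKO-R had 1623, with log2 ratios of 2.34 and -2.55 in the 2 pairs, so its 4 libraries stood in the same order as those of miR-532-3p. The following 4, miR-671-5p, miR-30d-5p, miR-18a-3p and miR-92a-1-5p, were at distances of 1.24 to 1.45. The other arm of its own hairpin, miR-532-5p, was at 2.43 from miR-532-3p, the largest distance between any members, and miR-500a-3p was the nearest member at 1.05.

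The summed members had other neighbours. miR-221-3p was nearest at a distance of 0.127, followed by miR-140-5p, miR-29c-5p, miR-335-5p and miR-29c-3p at 0.174 to 0.242. Among the members themselves miR-362-5p and miR-660-5p were the closest, at 0.181, although MIR501 and MIR500B lie between their hairpins. miR-188-5p, whose hairpin starts 355 bases after that of MIR532, was at 0.416 from miR-532-5p and at 2.02 from miR-532-3p.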

How the data were processed

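The authors deposited 1 table of raw read counts per mature miRNA for each of the 4 libraries, made from gel-selected small RNA with unique molecular identifiers in the adapters. The submitters' processing notes name Bowtie2 and hg38. The annotation release, the use of strand, the collapsing of identifiers and the treatment of reads with several matches are not given in the sources used here. A miRNA missing from a table was set to 0.

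The members, the other lists and the tests were chosen with earlier results of these data known. The text names the members, the other arms of the cluster, listed markers and other clusters, and the 5 nearest miRNAs by distance, while miR-7-5p, miR-3529-3p, miR-423-5p and miR-3184-3p were chosen after their values were seen. CPM used library totals, and pair ratios used TMM factors within a pair with exact conditional intervals (for all miRNAs, a count of 0 was set to 0.5). Intervals and floors cover counting error only. No replicate exists. The cell lines were compared by tests over all 4 libraries and, with counting intervals only, between single libraries. Tests used edgeR 4.0.16 (exact test at a BCV of 0.2 as in the study's methods, and quasi-likelihood) with R 4.3.3, and DESeq2 1.42.0 as an alternative. The edgeR tests, not DESeq2, were tried on counts simulated at a BCV of 0.2. The 4-library fit estimated 0.481, so that trial does not show how the tests perform at the spread of these data. Positions came from GENCODE release 29 on GRCh38. Descriptions and figures were made in Python 3.11.15 (scipy 1.17.1, numpy 2.4.6, matplotlib 3.10.9, pandas 2.3.3).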

Additional observations from a re-analysis of the deposited data

Results flagged for a closer look

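The log2 ratio of radioresistant over parental line differed between the 2 pairs for 3 members, in that the ratio of one pair lay above 0 and that of the other below 0, with counting intervals that exclude 0 in both. The difference, HCT116 pair minus RKO pair, was 4.41 for miR-532-3p, by which the cluster was chosen, 3.15 for miR-500a-3p and -0.26 for miR-532-5p. None of these differences was tested, because each line had 1 library. The sign of miR-532-5p in the RKO pair turned with the scaling, from 0.04 with TMM factors to -0.20 with library totals.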

How the results depend on the processing

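The number of members past 2-fold was 2 in the HCT116 pair, 3 in the RKO pair and 2 in opposite directions under library totals, DESeq2 size factors, TMM factors over all 4 libraries and a limit of 1.5-fold. The shares of all miRNAs were given above only for the 2-fold limit with TMM factors within a pair. With the exact test of edgeR, the number of members called in either pair changed with the assumed BCV (0.1, 0.2 or 0.4). Those calls rest on the assumed spread, and nothing is read from them. The SD of the members' log2 ratios in the HCT116 pair went from 0.81 to 0.52 without miR-532-3p, and to 0.86 with the 3 near-identical 3p arms summed. In the comparison of cell lines, the exact test at a BCV of 0.2 called 7 members (and 58.7% of all miRNAs, 351 of 598) where the quasi-likelihood fit called 0 (169 of 598), and with the radioresistant libraries alone the sign was reversed for miR-532-3p (-0.82), miR-500a-3p (-0.70) and miR-502-3p (-0.20), the counting intervals of the last 2 including 0. Under the other scalings, 23 log2 ratios of members for the HCT116 pair and 17 for the RKO pair stayed within the counting interval, and 1 and 7 moved beyond it. The 4-library fit held radioresistance and cell line as terms, so each parental line and its derivative shared a cell line term. The radioresistance term was not tested for the members, because the cluster was chosen in that contrast. With 16 to 102 counts, the depth limits miR-500a-3p most.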
